A study of Homo sapiens with 9 samples.

Results

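The genes described here are 32 genes of sterol synthesis and cholesterol handling, out of 18970 gene symbols in the count tables, followed in human cranial neural crest cells (CNCCs) after acute loss of the transcription factor SOX9. They form 5 groups by role. 8 are enzymes of early synthesis, from acetoacetyl-CoA to farnesyl and geranylgeranyl diphosphate, and 11 are enzymes from squalene to cholesterol. 5 genes regulate the sterol response, 4 are of transport and uptake, and 4 are of efflux or linked to the LXR receptors. The list was chosen by pathway role, but it was drawn up with the changes of these genes at 3h and 24h already known, so every difference between times below is a description of chosen genes and supports nothing by itself. The CNCCs, used at passage 4, were grown from 2 clones (S9CC13 and S9CC47) of H9, a line of human embryonic stem cells, in which SOX9 carried a degron tag. The agent was dTAGV-1, a small molecule that brings a tagged protein to a ubiquitin ligase. The 9 samples were 3 cultures, S9CC13_R6, S9CC47_R5 and S9CC47_R6, named by clone and differentiation batch, and each was taken at 3 times of treatment with 500 nM dTAGV-1 (0h, 3h and 24h). The labels put the relative SOX9 level at 100% in the 0h group and at 0% in the 3h and 24h groups. All groups carried the tag and were given 4-thiouridine (4sU, 100 uM) for 2 h, which for the 3h samples began 1 h into the treatment and for the 24h samples 22 h into it. DMSO was the vehicle. Cells without the tag given dTAGV-1 were not analysed here, so the agent and the loss of SOX9 cannot be told apart.

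In this assay, SLAM-seq, the incorporated 4sU is alkylated and read as a T>C conversion in 3′ end libraries. Reads with a conversion (T>C reads) stand for RNA made during the 2 h of labelling, and the other reads (unconverted reads) come from RNA made earlier and from new RNA that was read without a conversion. Total reads ranged from 16955633 to 28782678 per sample and T>C reads from 3130673 to 5475800. T>C reads made up 15.92% to 21.3% of a library, lowest in S9CC13_R6 at 3h. The summed level of a list of cranial neural crest markers was 2870 to 3050 CPM (counts scaled to equal library totals) at 0h. It reached 2910 to 3040 at 3h and 3250 to 3560 at 24h. The sum of the neuroepithelial list (SOX1, PAX6 and SOX2) was 0.225 to 1.01 CPM over the 9 samples. SOX1 was at 0 in all 9 samples and PAX6 in 6, and SOX2 was at 0.225 to 0.936 CPM. Summed chondrocyte markers were at 340 to 372 CPM at 0h, 312 to 353 at 3h and 172 to 225 at 24h, and nearly all of the sum came from COL2A1 and COL9A1, with ACAN and MATN1 at 0.823 CPM or less in all 9 samples. The sum of the pluripotency list was 350 to 414 CPM at 0h, 304 to 349 at 3h and 281 to 306 at 24h, and came from LIN28A (241 to 374 CPM) and DPPA4, while POU5F1 was at 0 in 8 of 9 samples and NANOG was at 0.203 CPM or less. The part of these shifts in the results at 3h and 24h was not tested. In bulk samples, fewer cells of a type and less RNA per cell cannot be told apart.

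Cells build cholesterol from acetyl-CoA through the mevalonate pathway. The early enzymes make farnesyl diphosphate, from which squalene, ubiquinone and the lipid anchors of proteins are derived, and the later enzymes close squalene into a ring and trim the ring to cholesterol. Most of these enzyme genes are known targets of the SREBP transcription factors, which SCAP escorts out of the endoplasmic reticulum when sterol is low and which INSIG1 and INSIG2 hold back when sterol is high. When sterol is plentiful, oxysterols activate the LXR receptors, whose known targets include exporters of cholesterol and MYLIP. Cholesterol also modifies Hedgehog proteins, signals that act on neural crest cells of the face.

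Newly made RNA of the synthesis genes was higher at 3h than at 0h along most of the pathway. Of the 32 genes, 30 passed the filter of 1 CPM in 3 samples, and 18 of these 30 were called higher at 3h in T>C reads (adjusted p under 0.1, DESeq2) and 0 lower. Over all 12037 genes tested, 1.01% were called higher and 0.789% lower. The 30 genes had a median log2 fold change of 0.62, while all genes tested had one of -0.01. Log2 fold changes come from this fit, which also had terms for batch and 1 surrogate variable estimated from the counts. They can therefore differ from ratios of the normalized reads given below. By role, the calls covered 6 of 8 early enzymes and 9 of 11 enzymes from squalene onward. They also covered 1 of 5 regulators, 2 of 4 transport genes and 0 of 2 tested genes of the efflux and LXR group. Those 2 were MYLIP and NR1H2, while the exporters ABCA1 and ABCG1 did not pass the filter. In 22 of the 30 genes all 3 samples at 3h lay above all 3 at 0h, a pattern shown by 5.72% of all genes. EBP was the called gene nearest the threshold (adjusted p 0.0635) and NPC2 the nearest uncalled one (0.212). With 1 culture left out, 10 to 13 genes were called, namely 10 without S9CC13_R6, 13 without S9CC47_R5 and 10 without S9CC47_R6. The share of all genes called in such refits is not given here or below. These counts therefore show only how the calls depend on a culture.

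**Figure D1:**
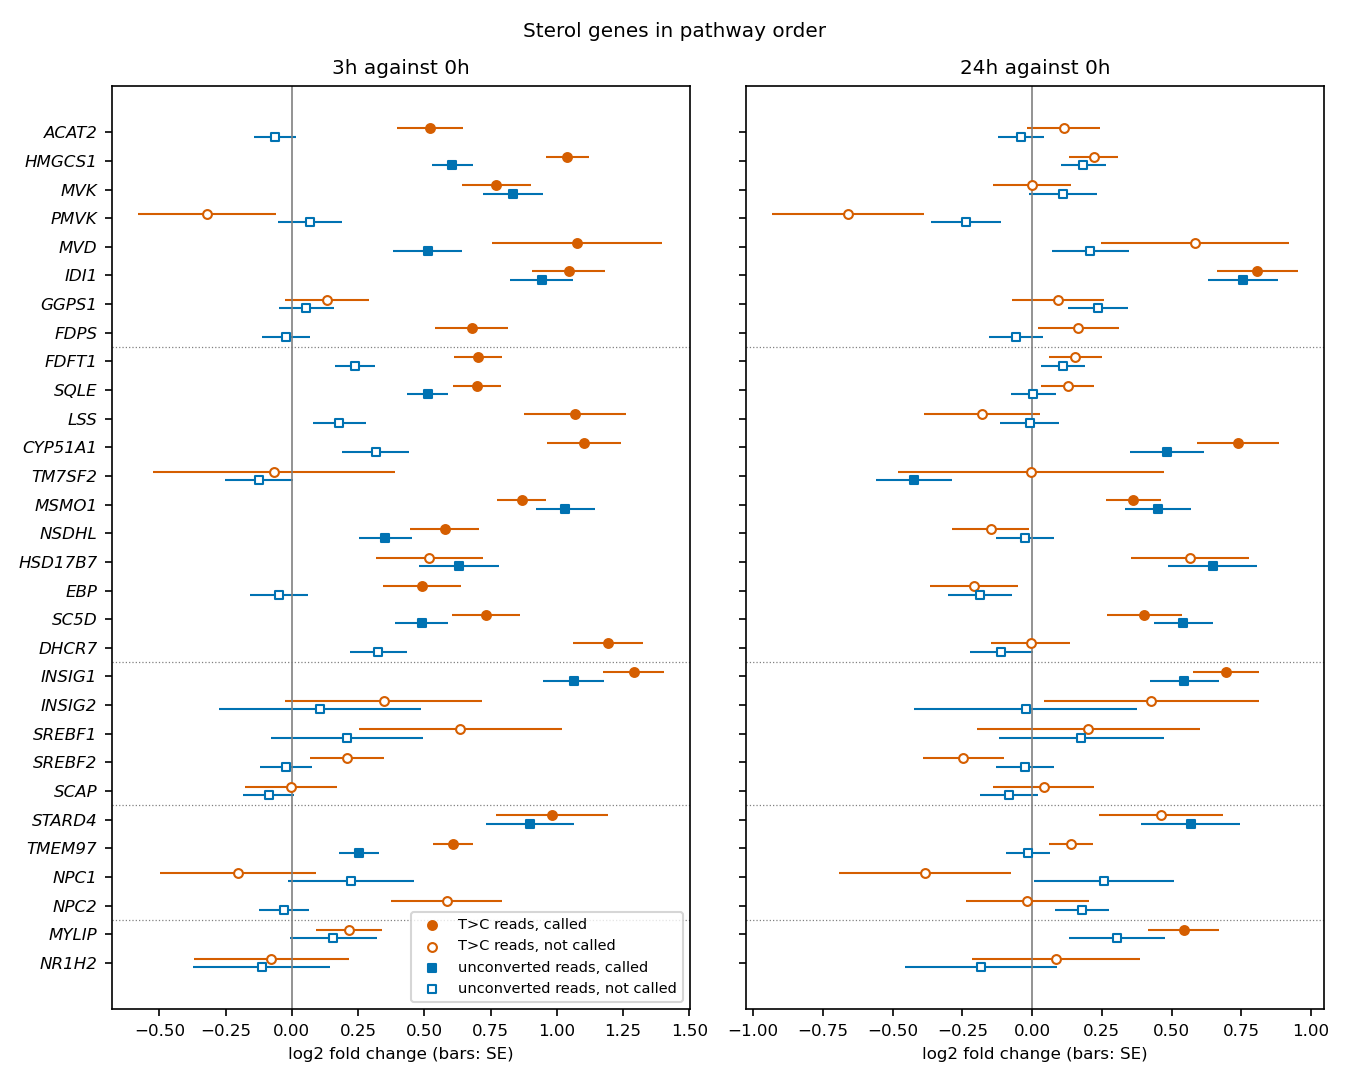
The log2 fold change of each of the 30 tested genes (x axis, bars are the standard error, SE) is plotted in pathway order (y axis), at 3h and at 24h against 0h, for T>C reads (circles) and unconverted reads (squares), with filled symbols for adjusted p under 0.1 and dotted lines between the 5 roles. At 3h the filled circles lie between 0.49 (EBP) and 1.29 (INSIG1), and at 24h 6 circles are filled.

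INSIG1, the sterol-sensing anchor that retains SCAP and is itself an SREBP target, had the largest fold change. Its gene lies on the plus strand at chr7:155297776-155310235 (hg38). In the cultures S9CC13_R6, S9CC47_R5 and S9CC47_R6 its normalized T>C reads were 803.3, 919 and 706.9 at 0h, and 1949, 2167 and 1903 at 3h. At 24h it had 1431, 1351 and 1022. The 3 times did not overlap, with the 24h samples between the others. The log2 fold change at 3h was 1.29 (SE 0.114, adjusted p 4.25e-26, DESeq2), and at 24h it was 0.69 (SE 0.119, adjusted p 8.18e-07).

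The promoters of these genes are shown because SREBP is known to act at promoters beside NF-Y, which binds CCAAT, and SP1, which binds GC boxes. RefSeq promoters (GRCh38.p14, 250 bases before to 50 after the first start listed) were found for 28 of the 32 genes. The first start listed is not always at the start of the GENCODE gene. For instance, the window of IDI1 lies well upstream of its gene, and those of DHCR7 and NR1H2 lie inside theirs. All 28 windows are counted below. 3 motifs were searched on both strands, namely the sterol element TCACNCCAC, the CCAAT box and the GC box GGGCGG, none of which holds another in its letters. CCAAT was in 18 of 28 promoters (64.3%) and in 36.6% of all 14903 promoters. GGGCGG was in 26 of 28 (92.9%) and in 59.7% of all. The sterol element in these letters was in 1 of 28, that of SREBF2, and in 1.17% of all promoters. Among the 15 promoters of genes called higher at 3h in T>C reads, 13 held CCAAT and 14 held GGGCGG, against 5 and 12 of the other 13. The calls behind this split were known when the genes were listed. The other 13 also differ by role, as they hold most of the regulators and most of the efflux and LXR group. A link between motif and change was not tested. With any listed start in place of the first, the counts were 20 for CCAAT, 27 for GGGCGG and 1 for the sterol element, beside 42.6%, 65.7% and 1.53% of all genes. These are matches of letters and not measured binding. The 250 bases before the start are printed, 5′ to 3′ on the gene's strand, for 3 genes with rises at 3h whose windows lie almost wholly before the GENCODE gene too, and for SREBF2 as the promoter with the sterol element. Capitals mark CCAAT, its reverse complement ATTGG and the sterol element. MSMO1 is at chr4:165327419-165327668, TMEM97 at chr17:28318950-28319199, EBP at chrX:48521558-48521807 and SREBF2 at chr22:41832855-41833104, all on the plus strand.
MSMO1: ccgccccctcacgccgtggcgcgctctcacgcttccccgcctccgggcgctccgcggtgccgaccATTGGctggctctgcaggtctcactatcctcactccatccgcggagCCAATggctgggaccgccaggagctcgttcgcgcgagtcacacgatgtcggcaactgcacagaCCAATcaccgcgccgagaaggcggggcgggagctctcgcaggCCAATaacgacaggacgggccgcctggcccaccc
TMEM97: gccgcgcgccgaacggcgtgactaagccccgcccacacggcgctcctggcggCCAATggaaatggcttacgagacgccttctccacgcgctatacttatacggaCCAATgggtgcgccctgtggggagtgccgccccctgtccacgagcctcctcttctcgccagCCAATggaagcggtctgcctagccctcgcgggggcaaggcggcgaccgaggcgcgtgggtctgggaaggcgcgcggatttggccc
EBP: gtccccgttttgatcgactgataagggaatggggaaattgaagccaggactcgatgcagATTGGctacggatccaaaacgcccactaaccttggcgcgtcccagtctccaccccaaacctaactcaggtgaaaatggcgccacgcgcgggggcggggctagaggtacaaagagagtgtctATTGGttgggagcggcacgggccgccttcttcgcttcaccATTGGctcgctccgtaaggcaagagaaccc
SREBF2: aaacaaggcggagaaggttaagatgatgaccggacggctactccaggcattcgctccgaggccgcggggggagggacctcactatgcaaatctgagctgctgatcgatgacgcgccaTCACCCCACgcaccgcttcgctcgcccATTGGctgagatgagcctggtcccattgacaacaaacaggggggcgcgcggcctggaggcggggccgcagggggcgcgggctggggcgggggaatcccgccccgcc
Counted from the gene's start, CCAAT or its complement began at -185, -139, -76 and -34 in MSMO1, at -198, -146 and -85 in TMEM97, and at -191, -70 and -30 in EBP. In SREBF2 it began at -106, and the sterol element at -133.

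Among the early enzymes, HMGCS1, which makes HMG-CoA at the head of the mevalonate pathway, was higher at 3h in every culture. Its normalized T>C reads were 3194, 3397 and 3119 at 0h, 5828, 7230 and 6665 at 3h, and 4050, 3702 and 3839 at 24h. All 3 samples at 3h were above all other samples, with a log2 fold change of 1.04 (SE 0.0828, adjusted p 4.63e-32, DESeq2). IDI1, which interconverts the 5-carbon isoprene units, went from 359.5, 461.9 and 308.5 to 669.4, 665.2 and 879.9 at 3h, and stood at 672.2, 635.5 and 857.2 at 24h. Its 3h and 24h samples overlapped and both were above 0h, and the log2 fold change at 3h was 1.04 (SE 0.139, adjusted p 3.31e-11, DESeq2). MVD, the decarboxylase that makes the first isoprene unit, had few T>C reads, with 78.14, 44.74 and 29.71 at 0h, 176, 122.1 and 81.68 at 3h, and 80.59, 71.65 and 26.67 at 24h. The order of the cultures was the same at each time, and each was higher at 3h than at 0h. The log2 ratios of these reads were 1.166, 1.439 and 1.444. The log2 fold change of the fit, adjusted for batch and the surrogate variable, was 1.08 (SE 0.32, adjusted p 0.0532, DESeq2). MVD was called in 9 of 14 refits under other settings.

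The other early enzymes called higher at 3h had smaller changes. The mevalonate kinase MVK went from 367.7 ± 3.14 normalized T>C reads in the 0h samples to 683.8 ± 172 in the 3h samples (mean ± SD, n = 3). Its log2 fold change in the adjusted fit was 0.77. FDPS, which makes farnesyl diphosphate, had 293.5 ± 23.5 and 489.9 ± 57.6, a log2 fold change of 0.68. ACAT2, a cytosolic thiolase that makes acetoacetyl-CoA, had 720.5 ± 68.7 and 1083 ± 266, a log2 fold change of 0.52. In all 3 genes no sample at 3h overlapped those at 0h. The early enzymes not called were PMVK, the kinase after MVK, with a log2 fold change of -0.32 (107.3 ± 20 and 82.63 ± 23.4), and GGPS1, which makes geranylgeranyl diphosphate outside the route to cholesterol, at 0.13 (226.4 ± 15.8 and 248.2 ± 19.2). PMVK was thus the step of the mevalonate chain between MVK and MVD without a call. Its T>C reads were lower at 3h in 3 of 3 cultures, but the 2 groups overlapped. Its unconverted reads were higher at 3h in 2 of 3 cultures. In total reads all 8 early enzymes had positive log2 fold changes at 3h, the lowest at 0.04.

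**Figure D2:**
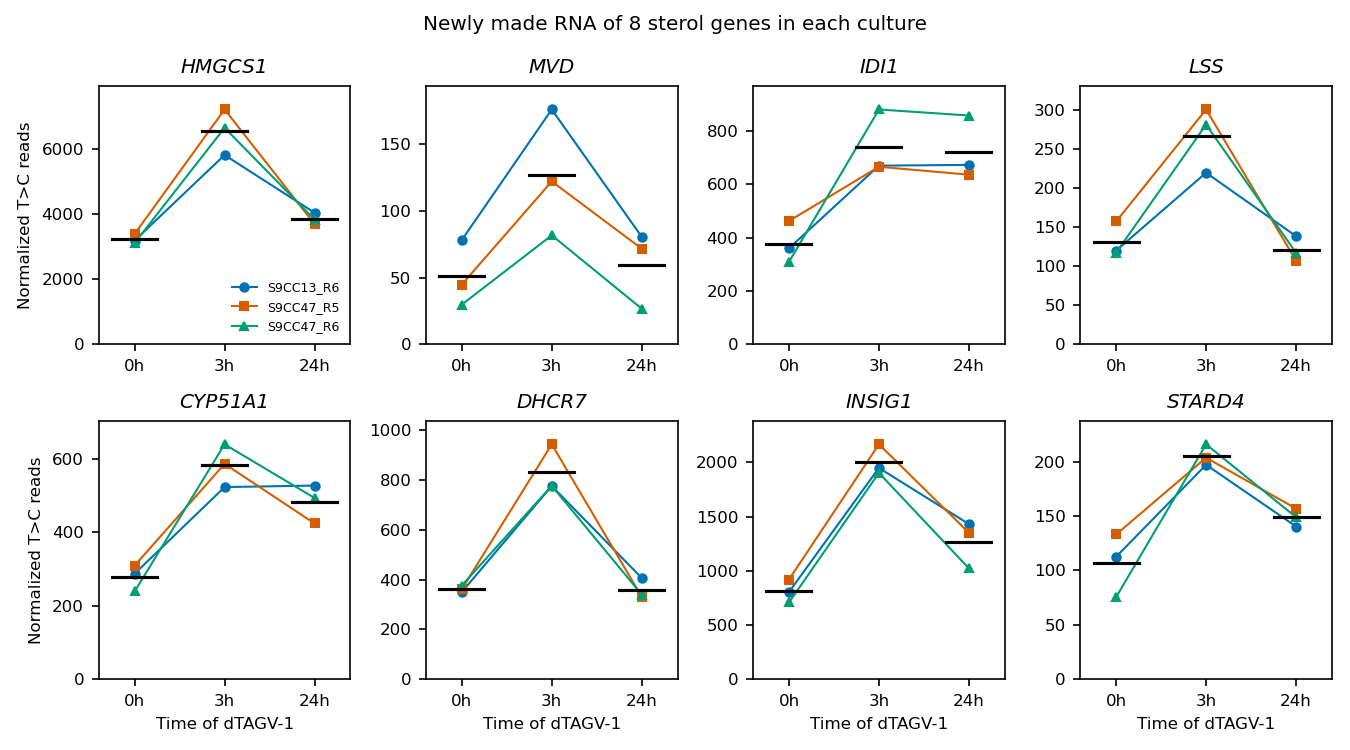
Normalized T>C reads (y axis, from 0) of the 8 genes with the largest change are plotted by time of dTAGV-1 (x axis), 1 line per culture, with black bars at the mean of the 3 cultures. All 3 cultures lie higher at 3h than at 0h in each of the 8 genes, and IDI1 and CYP51A1 keep most of that height at 24h.

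From squalene onward, DHCR7, the reductase that completes cholesterol, had the largest change. Normalized T>C reads of DHCR7 were 350.1, 361.6 and 376.3 at 0h, 776.6, 944.1 and 777.2 at 3h, and 406.8, 331.3 and 340.1 at 24h. The 3h samples lay above all others, and the 0h and 24h samples overlapped. The log2 fold change at 3h was 1.19 (SE 0.133, adjusted p 4.11e-16, DESeq2). CYP51A1, which removes a methyl group from lanosterol, had 287.6, 309.6 and 239.2 at 0h, 523.9, 587.3 and 640.6 at 3h, and 528.1, 424.7 and 494.2 at 24h. Its samples at both later times lay above those at 0h, with a 2.15-fold change at 3h (SE 0.141 on the log2 scale, adjusted p 3.26e-12, DESeq2). LSS, the cyclase that forms lanosterol, had 119.8, 157.2 and 117.3 at 0h, 219.6, 300.6 and 281.2 at 3h, and 138.4, 107 and 117.1 at 24h. It was high in the 3h samples alone, with a log2 fold change of 1.07 (SE 0.193, adjusted p 8.28e-06, DESeq2).

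6 further genes of this stretch were called higher at 3h. FDFT1 and SQLE, which make squalene and then its epoxide, had log2 fold changes of 0.70 each, from 1621 ± 62.6 to 2679 ± 270 and from 1139 ± 128 to 1911 ± 236 normalized T>C reads (SD, n = 3). MSMO1, the C4-methyl oxidase, rose from 1286 ± 113 to 2340 ± 140, a log2 fold change of 0.87, and NSDHL, which acts next to it, from 500.2 ± 60.3 to 805.2 ± 170, at 0.58. SC5D, a desaturase, rose from 335 ± 42.6 to 545.5 ± 16.6, at 0.73, and the isomerase EBP from 249.3 ± 34.8 to 347.2 ± 63.2, at 0.49. The groups at 0h and 3h did not overlap in any of the 6. The EBP call was kept in 4 of 14 refits. HSD17B7, the ketosteroid reductase of the same demethylation, was not called, with a log2 fold change of 0.52 (128.9 ± 11.1 and 200.5 ± 63.4, adjusted p 0.337, DESeq2), and with 136.5 reads in both its highest 0h sample and its lowest 3h sample. TM7SF2, a sterol C14 reductase, was at -0.07 on 38.93 ± 10.1 and 38.83 ± 17.9 T>C reads.

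Outside the enzymes, the calls at 3h covered 1 of 5 regulators and 2 of 4 transport genes. In the efflux and LXR group 0 of 2 tested genes were called. Over all genes, 1.01% were called higher. STARD4, which carries sterol between membranes, had normalized T>C reads of 112.5, 133 and 75.41 at 0h, 197.1, 203.6 and 215.9 at 3h, and 140.3, 156.8 and 148.9 at 24h, with a log2 fold change of 0.98 at 3h (SE 0.211, adjusted p 0.000454, DESeq2). Its 3h samples were above all others, and its 24h samples above those at 0h. TMEM97, a sterol-binding membrane protein that interacts with NPC1, rose from 3805 ± 252 to 6120 ± 1030, a log2 fold change of 0.61. The lysosomal sterol carriers NPC1 and NPC2 had log2 fold changes of -0.20 and 0.58, neither called. Of the regulators, INSIG1 was called, while INSIG2, SREBF1, SREBF2 and SCAP had log2 fold changes of 0.35, 0.63, 0.21 and 0.00, none called. INSIG2 and SREBF1 were counted on few reads, with 37.32 to 53.21 and 22.09 to 33.86 normalized T>C reads at 0h. SREBF1 was higher at 3h in 1 of 3 cultures, with log2 ratios of -0.27 in S9CC13_R6, -0.04 in S9CC47_R5 and 1.52 in S9CC47_R6. MYLIP, a ubiquitin ligase that marks lipoprotein receptors for breakdown, and NR1H2, which encodes an LXR, had log2 fold changes of 0.21 and -0.08. The exporters ABCA1, with 0 to 7 T>C reads in a sample, and ABCG1, with 0 in all 9, did not pass the filter.

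By 24h the calls against the same 0h samples were fewer. At 24h, T>C reads of 6 of 30 genes were higher and 0 lower, beside 2.38% and 2.59% of all genes, with a median log2 fold change of 0.13 (0.00 for all genes). That median was 0.05 without S9CC13_R6, 0.08 without the surrogate variable and 0.08 in a fit whose only covariate was the culture, as a replicate block. In 9 of the 30 all 3 samples at 24h lay above all 3 at 0h, as in 11.0% of all genes. The 6 genes were IDI1, CYP51A1, MSMO1, SC5D, INSIG1 and MYLIP. IDI1 had the largest log2 fold change (0.81, SE 0.145, adjusted p 3.32e-06, DESeq2), followed by CYP51A1 at 0.74 (SE 0.147, adjusted p 5.43e-05) and INSIG1 at 0.69. MSMO1 was at 0.36 (1660 ± 63.3 normalized T>C reads) and SC5D at 0.40 (456.7 ± 26.6), and the SC5D call was kept in 8 of 14 refits. Without S9CC13_R6 3 of the 30 genes were called, without S9CC47_R5 5, and without S9CC47_R6 1.

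MYLIP was the called gene at 24h that was not called at 3h. Its normalized T>C reads were 388.6, 383.3 and 363.3 at 0h, 455.1, 401 and 453.9 at 3h, and 578.4, 498.5 and 594.9 at 24h. No samples of the 3 times overlapped, and the log2 fold change at 24h was 0.54 (SE 0.128, adjusted p 0.00143, DESeq2). In total reads MYLIP was also called higher at 24h than at 3h, with a log2 fold change of 0.33 (SE 0.118, adjusted p 0.0983, DESeq2). The difference between 24h and 3h in its T>C reads was 0.33 as well and was not called (adjusted p 0.404, DESeq2).

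Between 3h and 24h, T>C reads of 12 of the 30 genes fell and 0 rose, beside 0.598% of all genes lower and 0.540% higher. The 30 genes had a median log2 fold change of -0.46, beside 0.01 for all genes, and in 18 of the 30 all samples at 3h lay above all at 24h, as in 9.32% of all genes. The falls covered 3 of 8 early enzymes, 7 of 11 later enzymes, INSIG1 and TMEM97. LSS fell by 1.25 on the log2 scale (SE 0.217), DHCR7 by 1.20 (SE 0.149) and HMGCS1 by 0.82 (SE 0.0929). The other 9 fell by 0.47 (TMEM97) to 0.77 (MVK), and of these FDPS kept its call in 7 of 14 refits. LSS and DHCR7 at 24h overlapped their 0h samples, and their log2 fold changes at 24h against 0h were -0.18 and 0.00. IDI1, CYP51A1 and SC5D, called higher at both times against 0h, had log2 fold changes of -0.24, -0.37 and -0.33 between 3h and 24h, not called. The value of IDI1 is that of the adjusted fit, while its mean normalized T>C reads were 738.2 at 3h and 721.7 at 24h. Without S9CC47_R5 4 of the 30 genes were called lower, and without S9CC13_R6 and S9CC47_R6 10 and 8 were called.

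In unconverted reads at 3h, 12 of the 30 genes were called higher and 0 lower, beside 0.694% and 0.408% of 11529 genes, with a median log2 fold change of 0.23. Of the 12, MSMO1 (1.03 in unconverted and 0.87 in T>C reads), MVK (0.83 and 0.77) and HSD17B7 (0.63 and 0.52) had larger log2 fold changes in unconverted reads. The genes called were HMGCS1, MVK, MVD, IDI1, SQLE, MSMO1, NSDHL, HSD17B7, SC5D, INSIG1, STARD4 and TMEM97. INSIG1 had the largest change, from 566.7, 614.4 and 488.9 normalized unconverted reads at 0h to 1242, 1233 and 1066 at 3h, a log2 fold change of 1.06. MSMO1 followed, from 517.2, 492 and 623 to 1276, 1047 and 1092, at 1.03. In both genes the 2 groups did not overlap. Without S9CC13_R6, 4 of the 30 were called, and without the other cultures 8 and 9.

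At 24h, unconverted reads of 7 genes were higher and 1 lower, beside 5.84% and 6.27% of all genes. IDI1 had the largest rise, with a log2 fold change of 0.76, and CYP51A1, MSMO1, HSD17B7, SC5D, INSIG1 and STARD4 were at 0.45 to 0.65. TM7SF2 fell from 852.5, 567 and 752.4 normalized unconverted reads at 0h to 616.8, 386.9 and 574.7 at 24h, a log2 fold change of -0.42 (SE 0.136, adjusted p 0.0271, DESeq2). Its values at the 2 times overlapped, while each culture was lower at 24h. Between 3h and 24h 8 genes were lower and 0 higher, beside 2.25% and 2.34% of all genes. At 24h 1 gene was called without S9CC13_R6, 4 without S9CC47_R5 and 1 without S9CC47_R6, and between 3h and 24h these counts were 3, 3 and 7. With the culture as a replicate block and 1 surrogate variable, 5 genes were called between 3h and 24h.

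Total reads, the sum of both kinds, gave 16 genes higher and 0 lower at 3h, beside 1.11% and 0.777% of 11710 genes, with a median log2 fold change of 0.35. INSIG1 was again the largest, at 1.16 (SE 0.102), from 1357, 1575 and 1208 normalized total reads to 2976, 3343 and 2989, and the groups did not overlap. At 24h 8 genes were higher and 1, TM7SF2, lower, beside 7.11% and 7.85% of all genes. Between 3h and 24h 10 genes were lower and 1, MYLIP, higher, beside 2.88% and 2.51%. Total reads called HSD17B7 higher at 3h (log2 fold change 0.59) and not ACAT2, FDPS and EBP, which were called in T>C reads. Without S9CC13_R6 6 genes were called at 3h and 2 at 24h, and without S9CC47_R6 5 at 24h. Shares of all genes called in these refits are not given, so these counts are not set against them. Between 3h and 24h 5 were called without S9CC13_R6, 4 without S9CC47_R5 and 5 without S9CC47_R6, and 6 with the culture as a replicate block and 1 surrogate variable.

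The T>C and unconverted reads were then compared within one fit. At 3h the change in T>C reads was larger than that in unconverted reads in 9 of 30 genes and smaller in 0, beside 0.264% of 11361 genes with a larger change. The 9 genes, with the log2 difference of the 2 changes, were DHCR7 (0.89), LSS (0.88), CYP51A1 (0.79), FDPS (0.75), ACAT2 (0.64), EBP (0.53), FDFT1 (0.51), HMGCS1 (0.46) and TMEM97 (0.41). FDPS shows the contrast: its unconverted reads were 5158, 6249 and 6348 at 0h and 5787, 6633 and 5220 at 3h, overlapping, while its T>C reads went from 316.7, 269.7 and 294 to 518.6, 527.5 and 423.6. In IDI1, MVK and MSMO1 the difference was 0.09, -0.05 and -0.20, none called. Without S9CC47_R5 2 of the 30 genes were called in this comparison, and without the other cultures 7 each. At 24h 0 of the 30 genes differed between the 2 kinds of reads, beside 0.0176% of all genes in both directions, while 476 of all genes had an unadjusted p under 0.05 (DESeq2).

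The share of a gene's reads with a conversion gives the same data per gene. At 0h it ran from 4.831% for FDPS, 5.156% for TM7SF2 and 7.581% for NPC2 to 59.61% for INSIG1, 66.43% for MYLIP and 70.56% for MSMO1. MSMO1 was above 98.3% of all tested genes and FDPS above 2.38%. DHCR7 had shares of 22.6%, 22.84% and 23.52% at 0h, then 30.83%, 35.1% and 32.99% at 3h, and later 24.14%, 25.85% and 24.92% at 24h, so the 3h samples stood apart. In MSMO1 it was 67.97%, 75.12% and 68.58% at 0h and 58.22%, 69.1% and 67.27% at 3h, and the groups overlapped. The median share of the 30 genes at 0h was 26.3% ± 0.946 (SD, n = 3), and it stood at 28.96% ± 1.3 in the 3h samples and 27.72% ± 0.497 in the 24h samples. For all tested genes it was 27.01% ± 1.08, 24.74% ± 2.38 and 28.25% ± 1.23. The median of the 30 genes was higher at 3h than at 0h while that of all genes was lower, and no test was made of either.

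**Figure D3:**
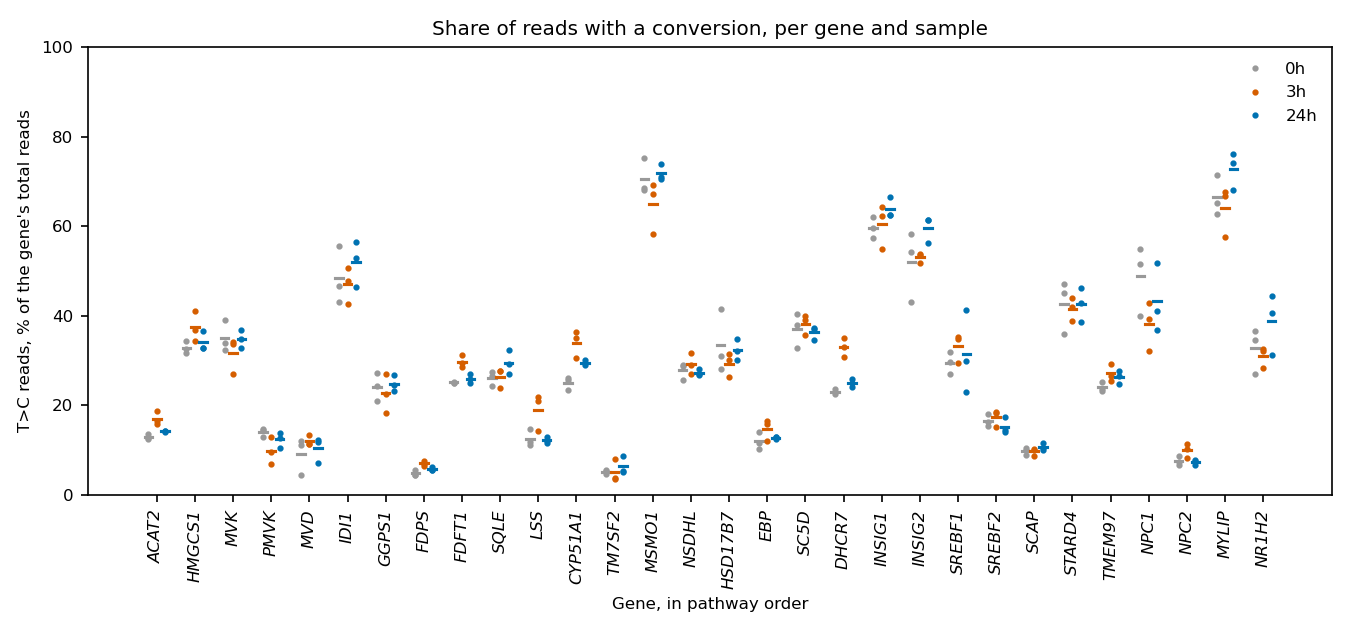
The share of each gene's total reads with a T>C conversion (y axis, percent) is plotted for the 30 tested genes in pathway order (x axis), 1 point per sample and a bar at the mean of 3 samples for 0h, 3h and 24h. The shares at 0h run from 4.831% (FDPS) to 70.56% (MSMO1), and DHCR7 and CYP51A1 are among the genes whose 3h points lie above those at 0h.

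Among the 18 genes higher at 3h, those with a low share at 0h had the larger difference between T>C and unconverted changes. The 9 genes with a called difference had shares at 0h of 4.831% to 32.82%, and the other 9 of 9.212% to 70.56%. Spearman's rho between share and difference was -0.835 over the 18 genes, and -0.764 over the 103 other genes called higher at 3h. The relation is across genes, which are not independent, and T>C reads at 0h enter both measures. Both sets were also picked by their T>C change at 3h, which is part of the difference. A negative rho can thus come from the measures and the choice alone. The other genes are therefore no separate check, and no conclusion is drawn.

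**Figure D4:**
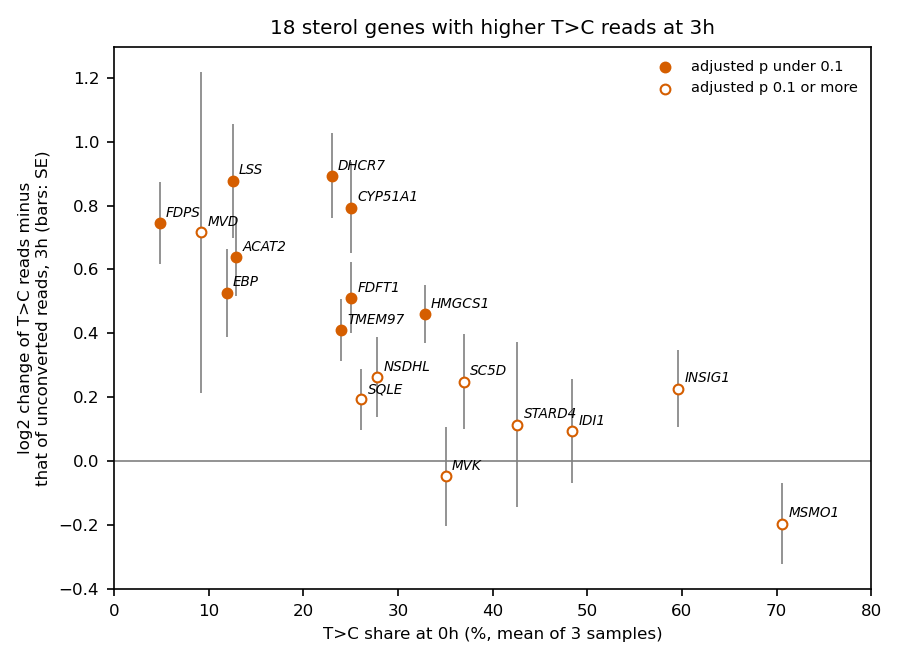
For the 18 genes higher at 3h, the log2 change of T>C reads minus that of unconverted reads (y axis, bars are the SE) is plotted against the T>C share at 0h (x axis, percent, mean of 3 samples), with filled points for adjusted p under 0.1. FDPS at a share of 4.831% has a difference of 0.75, and MSMO1 at 70.56% has -0.20.

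The cultures, which did not enter the choice of the genes, were compared with each other. The counts of calls were too small to set these genes apart from all genes. In T>C reads over the 3 times, 1 of 30 genes differed between S9CC13_R6 and S9CC47_R6, 2 clones in one batch, beside 1.32% of all genes. It was MVD, higher in S9CC13_R6 by a log2 fold change of 1.34 (SE 0.282, adjusted p 0.000773, DESeq2), in 3 of 3 times. In total reads SREBF1 was lower in S9CC13_R6, at -0.98 (SE 0.316, adjusted p 0.0693, DESeq2), the 1 gene called beside 3.38% of all genes, and edgeR called 0. Between the batches R5 and R6 of clone S9CC47, 0 of 30 genes were called in T>C reads and 0 in total reads by DESeq2 and by edgeR, beside 0.690% and 1.65% of all genes by DESeq2, of which 720 and 985 had an unadjusted p under 0.05. Each culture was 1 differentiation of 1 clone. With time as a term, the p-values rest on the scatter of the 9 samples around the fit. They do not measure a spread between differentiations of a clone.

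Lists of neighbouring pathways, written with earlier results known, were counted the same way in T>C reads. At 3h 5 of 8 genes of fatty acid synthesis were higher, beside 1.01% of all genes. Of those called, the desaturases SCD (log2 fold change 0.72) and FADS2 (0.63) had the largest changes, and ACSS2 was at 0.88 without a call (SE 0.336, adjusted p 0.31, DESeq2). Between 3h and 24h 4 of the 8 were lower, beside 0.598% of all genes, among them ACSS2 at -1.29 and FASN at -0.48. At 24h against 0h SCD and ELOVL6 were higher, at 0.30 and 0.40, beside 2.38% of all genes. Of 22 genes of sterol ester storage, transfer and uptake, 1 was lower at 3h, STARD5 (-1.05), a relative of STARD4, and 1 at 24h, OSBPL1A (-0.71), beside 0.789% and 2.59% of all genes lower. Of 13 genes of the isoprenoid branch, which leads to ubiquinone, dolichol and protein prenylation, 0 were called at 3h and 1 at 24h, NUS1 (0.52), beside 2.38% of all genes higher. Of 15 genes of SREBP processing and 7 tested oxysterol and LXR partners, 0 were called in any of the 3 time comparisons. The list medians at 3h were 0.53 for fatty acid synthesis, -0.07 for the isoprenoid branch, 0.04 for SREBP processing, 0.00 for ester storage and 0.21 for the LXR partners, beside -0.01 over all genes.

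Some of these counts may hold reads of neighbours. In ACAT2, HMGCS1, IDI1, FDPS, LSS, CYP51A1, SREBF1, TMEM97 and NPC1 a gene on the opposite strand overlaps the last 1000 bases, and in GGPS1 and EBP a gene on the same strand. The part of these neighbours in the counts was not tested.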

How the data were processed

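The authors deposited raw counts per gene symbol in 2 tables, all reads and reads with a T>C conversion, with 9 of 9 sample columns used in each and no normalization. Per the study's methods, the first reads of QuantSeq 3′ libraries were trimmed with skewer and mapped and counted with slamdunk. The build is hg38 in the submitters' processing notes. Whether counting used strand, and any molecular identifiers, are not given in the sources used here. Unconverted reads are total minus T>C reads.

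Groups came from the sample titles. DESeq2 (version 1.42.0, in R 4.3.3) was fitted once to the raw counts of the 9 samples, with terms for time, batch and 1 surrogate variable (sva 3.50.0), over protein-coding genes (18769 by GENCODE and RefSeq symbols) with at least 1 CPM in 3 samples, without independent filtering, following the study's methods. The call needed an adjusted p under 0.1 after Benjamini-Hochberg adjustment over all genes tested. Normalized reads are counts divided by size factors, without adjustment for batch or the surrogate variable. The comparison of T>C with unconverted reads had a term per sample, and cultures were compared with culture and time as terms. Scripts were tested on simulated data. The times share samples, so the comparisons against 0h share controls.

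The members and lists were chosen with earlier results of these data known. By the rule for named genes, the 8 genes with the largest change at 3h or 24h were given in all 9 samples and other called genes by group means. The cultures pair samples across times by clone and batch in the titles. Deviations of the samples of a culture correlated at a mean r of 0.131 in T>C reads (0.0169 to 0.286 over 9 pairs) and 0.273 in total reads (-0.0566 to 0.606). Alternatives were edgeR (4.0.16) with TMM, TMM factors in DESeq2, other covariates, the culture as a replicate block, other filters on low counts, fits of 6 samples, size factors from total reads and each culture left out.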

Additional observations from a re-analysis of the deposited data

Results flagged for a closer look

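For 12 genes the fold change against 0h differed between 24h and 3h in T>C reads. The test was 24h against 3h in the same DESeq2 fit (adjusted p under 0.1). All 12 were lower at 24h, beside 0.598% of all genes lower and 0.540% higher. The genes were listed with their changes at 3h and 24h known, so these calls support nothing by themselves. The log2 fold change at 24h minus that at 3h was -1.25 for LSS, -1.20 for DHCR7, -0.82 for HMGCS1, -0.77 for MVK, -0.72 for NSDHL, -0.70 for EBP, -0.59 for INSIG1, -0.57 for SQLE, -0.55 for FDFT1, -0.51 for FDPS, -0.50 for MSMO1 and -0.47 for TMEM97. In total reads the same difference was 0.33 for MYLIP, beside 2.51% of all genes called higher. Both times share their 0h samples, which drop out of this difference.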

How the results depend on the processing

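The 36 changes in T>C reads named above were refitted under 14 other settings each, with 0 reversals. At 3h 222 of 252 refits kept the call, at 24h 72 of 84, and at 24h against 3h 148 of 168. With a culture left out, the genes called ranged from 10 to 13 at 3h, 1 to 5 at 24h and 4 to 10 at 24h against 3h in T>C reads, from 4 to 9, 1 to 4 and 3 to 7 in unconverted reads, from 6 to 13, 2 to 8 and 4 to 5 in total reads, and from 2 to 7 in the comparison of T>C with unconverted reads at 3h. These counts are given without the share of all genes called in the same refit. Without S9CC13_R6 no surrogate variable could be estimated, and that fit had none. With the culture as a replicate block the T>C counts were 17, 6 and 15, and with 1 surrogate variable added to the block they were 17, 5 and 10. With the block and 1 surrogate variable, genes lower at 24h against 3h numbered 5 in unconverted reads, and 6 genes were called in total reads. By edgeR, 0 genes differed between S9CC13_R6 and S9CC47_R6 in total reads. Summed over the genes in place of the median, the T>C share was 24.08% at 0h and 27.2% at 24h. Size factors from total reads gave 16, 6 and 11 calls in T>C reads. Leaving out the library S9CC13_R6 at 3h, chosen after seeing the data, gave 17, 5 and 11. Counts over all genes moved more. At 24h against 3h in T>C reads 137 genes were called, and 267 by edgeR, 373 without the surrogate variable, 384 without covariates, 530 with the block and 60 with the block and 1 surrogate variable. At 24h against 0h they were 599, and 968 by edgeR and 354 with the block and 1 surrogate variable. At 3h they were 216, and 134 without covariates, 135 with 6 samples and 48 to 90 with a culture left out. Depth limits INSIG2, SREBF1 and TM7SF2, whose mean T>C reads were 52.5, 35.5 and 37.3.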
